A study of Mus musculus with 2 samples.

Results

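Of 22286 Tcf1 peaks deposited for naïve CD8+ T cells, 21764 lay on chromosomes 1 to 19, and 1960 of these sat in intergenic sequence far from protein-coding genes. A peak was counted here when its summit was outside every annotated gene, more than 1 kb from every annotated start site and over 50 kb from the nearest protein-coding start site (mm9, GENCODE vM1). The 1960 peaks split into 1526 peaks at 50 to 200 kb and 434 peaks beyond 200 kb. Likely repeat artefacts were separated next. A peak was set aside when the control level at its summit was over 50 fragments, or when the 32-base words within 100 bp of the summit occurred a median of 10 or more times in the genome. This set aside 215 peaks and retained 1745, of which 1421 were at 50 to 200 kb and 324 beyond 200 kb.

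Tcf1 ChIP-seq was done with a rabbit antiserum to full-length Tcf1 on naïve CD8+ splenic T cells sorted as GFP+ TCRbeta+ CD62L-high CD44-low-to-medium cells. The WT group was 1 library of wild type cells, and the Tcf1-deficient group was 1 library that the peak caller used as control. The labels give the control genotype as Tcf1-/-Lef1-/-, whereas the study's methods give Cd4-Cre+ Tcf7 fl/fl, a deletion of Tcf7 alone from the thymus onwards, so whether the control cells lacked Lef1 differs between sources. The mice were 6 to 12 weeks old on a C57BL/6 background, and sex was not given for either library. The GFP gate belongs to a Rosa26 GFP reporter of Cre activity, and the methods describe the WT mice of the study as hCD2-Cre+ Rosa26 GFP. A peak list holds no expression, so the cell type could not be checked against marker genes. With 1 library per group there was no replicate, the deposited p compares these libraries rather than the genotypes, and every interval below covers counting error only. Peaks close together share a locus, and the nearest gene is a position, not a shown target.

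Tcf1, encoded by Tcf7, is a high-mobility-group factor that binds DNA in the minor groove and bends it, and it shapes T cell gene expression from the early thymus to the peripheral naïve pool. Much of the regulatory DNA of lineage genes lies in distal enhancers, which can act on a promoter over long stretches of intergenic DNA and are often bound by several factors side by side. In T cells the Runx and ETS families are frequent partners at such elements. Gene deserts, the long gaps between genes, hold both such remote enhancers and large amounts of repeated sequence on which short reads are hard to place.

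With 1 fragment kept per position, 36938606 of 46428124 fragments were left for the WT library and 27625250 of 36118114 for the Tcf1-deficient library, a ratio of 1.34. Pileup, the number of WT fragments over a summit, was set against the local control level, whose lowest possible value was 5.42 fragments, called the floor here. Where the control sat at that floor, fold enrichment was decided by the WT pileup alone. This held for 1482 (84.9%) of the retained peaks and for 88 (40.9%) of those set aside.

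Sequences of 101 bp centred on the summit are shown first, because the sequence content of these peaks carries much of what follows. All are on the plus strand of NCBIM37, the assembly also called mm9, and are named by the nearest protein-coding gene. Capitals mark an exact Tcf/Lef core (ATCAAAG), Runx core (TGTGGTT) or ETS core (CGGAAGT) on either strand. The first set holds the 3 peaks of largest fold enrichment at 50 to 200 kb with a Tcf/Lef core inside these 101 bp.
Il6st peak (chr13:113215089-113215189): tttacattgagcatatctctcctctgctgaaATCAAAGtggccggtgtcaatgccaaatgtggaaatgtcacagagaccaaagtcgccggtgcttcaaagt
Rap1b peak (chr10:117385094-117385194): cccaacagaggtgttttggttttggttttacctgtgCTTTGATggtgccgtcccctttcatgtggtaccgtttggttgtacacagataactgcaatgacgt
Rpl21-ps10 peak (chr3:38179247-38179347): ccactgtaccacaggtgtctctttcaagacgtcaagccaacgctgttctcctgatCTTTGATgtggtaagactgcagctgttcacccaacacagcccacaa
The next set holds the 4 such peaks of largest fold enrichment beyond 200 kb.
Mtx2 peak (chr2:74911363-74911463): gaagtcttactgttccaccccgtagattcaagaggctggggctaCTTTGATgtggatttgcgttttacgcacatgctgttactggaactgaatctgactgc
Ets1 peak (chr9:32733970-32734070): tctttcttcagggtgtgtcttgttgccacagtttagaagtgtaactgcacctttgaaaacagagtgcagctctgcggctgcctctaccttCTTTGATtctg
Diras2 peak (chr13:52358553-52358653): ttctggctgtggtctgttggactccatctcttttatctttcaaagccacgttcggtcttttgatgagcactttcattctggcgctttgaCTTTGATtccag
Cblb peak (chr16:51719909-51720009): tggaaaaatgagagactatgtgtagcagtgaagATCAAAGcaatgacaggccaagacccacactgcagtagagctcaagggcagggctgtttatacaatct
The Rpl21-ps10 and Mtx2 windows each held 1 copy of the core running directly into GTGG, the joined sequence CTTTGATGTGG taken up again below.

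Another set shows that some of the tallest peaks carried no exact Tcf/Lef core within 100 bp. These 4 windows were chosen after their values were seen.
Itpr2 peak (chr6:146029727-146029827): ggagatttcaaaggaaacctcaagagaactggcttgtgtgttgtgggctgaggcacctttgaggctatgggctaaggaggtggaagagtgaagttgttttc
Obfc2a peak (chr1:51641922-51642022): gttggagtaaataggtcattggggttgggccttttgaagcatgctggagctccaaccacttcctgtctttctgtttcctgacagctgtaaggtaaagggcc
Fut8 peak (chr12:78889411-78889511): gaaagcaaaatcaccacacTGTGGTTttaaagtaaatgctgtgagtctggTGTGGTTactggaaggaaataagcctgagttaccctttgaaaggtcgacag
Atp10a peak (chr7:65704150-65704250): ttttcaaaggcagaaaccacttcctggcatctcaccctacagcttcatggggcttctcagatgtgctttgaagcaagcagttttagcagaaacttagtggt
The Itpr2 window held 1 copy of TTCAAAG, a variant of the core. The Fut8 window held 2 copies of the Runx core and 1 of TTCAAAG. The Obfc2a and Atp10a windows each held 1 copy of the Runx half-site AACCAC running directly into TTCC, the ETS half-site. The Atp10a window also held 2 copies of TTCAAAG.

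The median enrichment of the retained distal peaks lay between those of nearer intergenic peaks. Their median fold enrichment was 6.54 (95% interval 6.39 to 6.86; interquartile range 4.67 to 11.4; n = 1745), against 6.70 in intergenic peaks 10 to 50 kb away and 6.31 at 1 to 10 kb. The median was 6.58 at 50 to 200 kb and 6.54 beyond 200 kb. High-confidence peaks (q under 0.05, p under 1e-05, fold enrichment 4 or higher) numbered 1586 of the 1960 (80.9%, exact binomial interval 79.1 to 82.6), beside 86.2% of all 21764 peaks on these chromosomes. Among the retained the share was 86.6% (85.0 to 88.2), with 86.8% at 50 to 200 kb and 86.1% beyond 200 kb. Against 88.6% at 10 to 50 kb the difference was -1.95 percentage points (-4.01 to 0.05), an interval that includes 0, but with no peak set aside it was -5.98 points (-8.17 to -3.82).

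High enrichments were more frequent than at promoters. A fold enrichment of 20 or more was reached by 180 retained peaks (10.3%, 8.93 to 11.8), beside 6.94% of all peaks on these chromosomes, and by 0 of the 215 set aside. The share was 9.92% at 50 to 200 kb and 12.04% (8.70 to 16.1) beyond 200 kb, and the interval of that difference (-1.41 to 6.36 points) included 0. Promoter peaks, those within 1 kb of a start site, reached it in 3.68%, a difference of 6.64 points (5.23 to 8.20). For peaks inside genes the share was 9.35% and for those 10 to 50 kb away 9.34%, and both intervals of the difference (-0.55 to 2.61 and -0.83 to 2.83 points) included 0. Pileup had a median of 43 fragments and reached 805, and width had a median of 426 bp and reached 2401 bp. Fold enrichment went with width (Spearman rho 0.816) and not with distance (rho 0.02), both across the 1745 peaks of the same pair of libraries and given as a description.

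Summits thinned out with distance, with no step at 50 kb. Per Mb of intergenic sequence that met the same placement rule, retained summits numbered 9.87 (Poisson interval 9.38 to 10.4) at 1 to 10 kb, 6.72 at 25 to 50 kb, 5.33 at 50 to 75 kb and 2.45 at 150 to 200 kb. The density was 0.756 at 300 to 500 kb, 0.332 at 500 to 1000 kb and 0.07 (0.02 to 0.17) beyond 1000 kb, where 4 retained summits lay. Over all 878.5 Mb beyond 50 kb it was 1.99 (1.89 to 2.08). On either side of the 50 kb limit, the 10 kb before it held 5.99 and the 10 kb after it 5.61 retained summits per Mb. On either side of the 200 kb limit, the 20 kb before and after held 2.37 and 1.79. GC content of the territory also went down, from 43.0% at 1 to 10 kb to 36.9% beyond 1000 kb, and its part in the density was not tested.

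**Figure D1:**
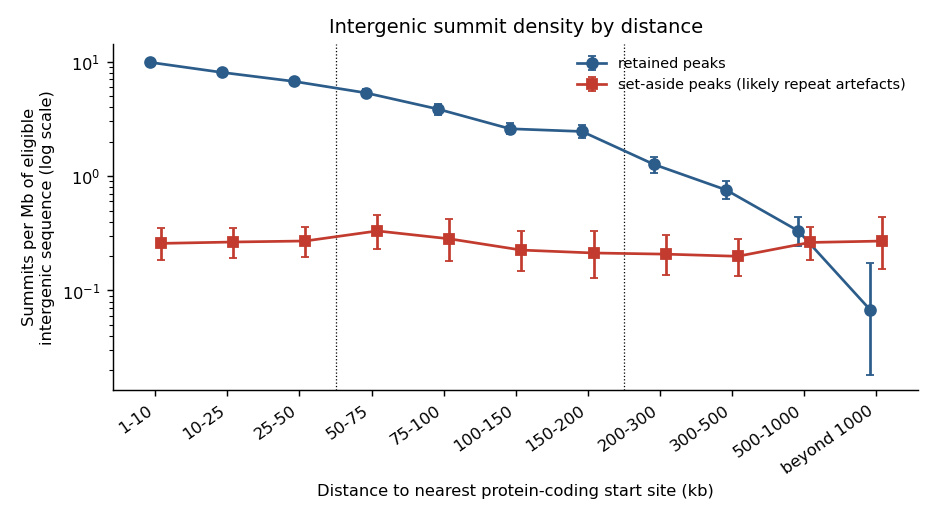
Summits per Mb of eligible intergenic sequence (log scale) against distance to the nearest protein-coding start site (kb), for retained peaks (circles) and peaks set aside as likely repeat artefacts (squares), with exact 95% Poisson intervals; dotted lines mark 50 and 200 kb. Retained summits went from 9.87 per Mb at 1 to 10 kb to 0.07 beyond 1000 kb, while set-aside summits stayed between 0.20 and 0.33 in every range.

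Median fold enrichment was between 6.54 and 7.40 in the ranges from 50 to 300 kb and lower beyond them, at 5.9985 from 300 to 500 kb, 5.69 from 500 to 1000 kb and 5.11 for the 4 peaks beyond 1000 kb. The Tcf/Lef core was present in 10.5% of peaks at 150 to 200 kb, the lowest share of the ranges from 50 to 1000 kb, in 16.7% at 300 to 500 kb and at 500 to 1000 kb (48 peaks), and in 0 of 4 beyond 1000 kb. Distance itself had a median of 97.7 kb and a maximum of 1254 kb among the retained, with 52 peaks beyond 500 kb. Measured to the start site of any annotated gene, noncoding ones included, the median was 65.3 kb and 1204 peaks (69.0%) were still beyond 50 kb. The share lying upstream of the nearest protein-coding gene was 57.1% (54.7 to 59.4), against 63.9% at 10 to 50 kb, a difference of -6.84 points (-9.83 to -3.84). These shares were not adjusted for the eligible sequence on each side. Beyond 50 kb this was 465.0 Mb upstream and 413.5 Mb downstream, with 2.14 and 1.81 retained summits per Mb.

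The peak of largest fold enrichment lay downstream of Itpr2, which encodes an inositol trisphosphate receptor that releases calcium from the endoplasmic reticulum. At chr6:146028405-146030236, 66.0 kb from the start site, it had a pileup of 805 (Poisson interval 750 to 863) in the WT library against the floor of 5.42 in the Tcf1-deficient library, a fold enrichment of 126. It was also 1832 bp wide, and it lay 11.2 kb from a run of at least 1000 unknown bases in the assembly, although its 32-base words were unique.

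Il6st, the shared signalling receptor chain gp130 of the interleukin-6 family, followed with chr13:113214358-113215822, 50.1 kb upstream. Its pileup was 580 against 5.42, a fold enrichment of 90.5, and it carried the Tcf/Lef core shown above. It lay just past the 50 kb limit, so its place among these peaks depends on that limit. A companion 57.0 kb upstream of Il6st had 152 fragments against 5.42 and a fold enrichment of 23.8. On the far side of Ankrd55, chr13:112853572-112854362 was 225 kb from that gene and 411 kb upstream of Il6st, with a pileup of 249 against 5.42 and a fold enrichment of 39.0.

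Next in order came a peak at chr3:115518212-115519189 (fold enrichment 77.1, pileup 494 against 5.42). Its nearest gene was A930005H10Rik at 72.4 kb, and it lay 101 kb upstream of S1pr1, the sphingosine phosphate receptor that lets naïve T cells leave lymphoid organs. A second S1pr1 peak, 84.5 kb upstream at chr3:115502089-115502822, had a pileup of 112 and a fold enrichment of 17.6. The peak 50.6 kb upstream of Kpna4, an importin, had a fold enrichment of 70.4 and was among the few to carry both the Tcf/Lef and the Runx core. The Obfc2a peak, 107 kb upstream of a single-stranded DNA binding protein gene, had 405 fragments against 5.42 and a fold enrichment of 63.3.

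The rest of the 15 strongest peaks at 50 to 200 kb are given by gene. Upstream of Lef1, the closest relative of Tcf1, chr3:130716811-130717787 had 331 fragments against 5.42 and a fold enrichment of 51.7 at 96.0 kb. Near Tle4, a Groucho corepressor that Tcf factors recruit, the peak at 97.6 kb had 392 fragments against 6.02 and a fold enrichment of 56.0, with the Tcf/Lef core. The peak 60.6 kb upstream of Hbs1l was 74.4 kb upstream of Myb, a haematopoietic transcription factor, with a fold enrichment of 54.5. The effector genes Fasl, the death ligand of cytotoxic cells, and Ifng, encoding interferon gamma, had peaks 117 kb and 193 kb downstream with fold enrichments of 55.2 and 49.7. Rap1b, a small GTPase of integrin activation, had the second tallest WT pileup of the retained, 742 fragments, but against a control level of 12.7, and so a fold enrichment of 54.2. The other 4 of the 15 lay near Gm7713, Rpl7a-ps3, Rpl21-ps10 and Rasl11b, with fold enrichments of 49.2 to 57.5. The Tcf/Lef core was within 100 bp of 6 of the 15 summits, those near Il6st, Kpna4, Tle4, Rap1b, Rpl21-ps10 and Rasl11b. The control level was above its floor at the Tle4 and Rap1b peaks and at its floor at the other 13.

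Beyond 200 kb the strongest peak was 378 kb downstream of Fut8, which adds core fucose to N-glycans. At chr12:78889014-78889831 it had 354 fragments against 6.02 and a fold enrichment of 50.6. Upstream of Atp10a, a phospholipid flippase gene, chr7:65703840-65704962 had 358 against 6.69 and a fold enrichment of 46.7 at 209 kb. Peaks 244 kb and 206 kb downstream of Rplp1, a ribosomal stalk protein gene, had 290 and 253 fragments against 5.42 and fold enrichments of 45.3 and 39.6. Among the 15 strongest of this range, only the Mtx2 peak carried the Tcf/Lef core within 100 bp, while 3 of them carried the Runx core.

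Further peaks beyond 200 kb are given by gene, and the Ets1 peak and all but the strongest Cblb peak fell outside the 15 strongest. Upstream of Cblb, an E3 ubiquitin ligase that restrains T cell receptor signalling, chr16:51675091-51675742 had 251 fragments against 5.42 and a fold enrichment of 39.3 at 356 kb. It was followed at 341 and 326 kb by peaks of 201 fragments each, with fold enrichments of 31.5, both with the Runx core. Another, at 312 kb, had 128 fragments, a fold enrichment of 20.1 and the Tcf/Lef core. Downstream of Maf, a bZIP transcription factor of helper cells, chr8:117923780-117924588 had 223 against 5.42 and a fold enrichment of 34.9 at 307 kb. The Gadd45g peak at 297 kb, near a stress-induced signalling gene, had 225 against 5.42 and a fold enrichment of 35.2, and its 32-base words occurred a median of 3 times. Ets1, an ETS factor of lymphocytes, had chr9:32733334-32734512 at 230 kb with 212 fragments and a fold enrichment of 33.2.

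A remote cluster lay downstream of Bcl11b, a transcription factor required for T lineage commitment, with the protein-coding gene 3110018I06Rik between them. Within 1 Mb of Bcl11b there were 12 retained peaks, 9 of them between 857 and 992 kb downstream. Fold enrichment among the 9 ran from 3.895 to 33.5, and 5 reached 10 or more. The strongest, chr12:108376966-108377700, had 214 fragments against 5.42 and the Runx core, and was 349 kb from its nearest protein-coding gene, 3110018I06Rik. Another, chr12:108289264-108289965, had 133 fragments, a fold enrichment of 20.9 and the Tcf/Lef core.

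The Tcf/Lef core was about 4 times as frequent at these summits as beside them. ATCAAAG on either strand within 100 bp was found in 227 of 1745 retained peaks (13.01%, 11.5 to 14.7) and in 3.38% of 3490 windows of the same length centred 2 kb to each side, a difference of 9.63 points (7.99 to 11.4). Read backwards, as a control of the same base composition, it was found in 2.98% of the summits. The Runx core TGTGGTT was more frequent than the Tcf/Lef core, in 411 peaks (23.6%, 21.6 to 25.6) against 4.47% of flanks, a difference of 19.1 points (17.02 to 21.2). The ETS core CGGAAGT was in 2.98% (2.23 to 3.89) against 0.43%, a difference of 2.55 points (1.80 to 3.47).

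The CTCF core AGGGGGC was in 2.46% against 1.60% (difference 0.86 points, 0.07 to 1.77), and its reversed form showed a difference of 0.52 points. With flanks centred 5 kb away the CTCF difference was 0.43 points (-0.39 to 1.37), and at 50 to 200 kb alone it was 0.63 points (-0.24 to 1.66), intervals that include 0, while beyond 200 kb alone it was 1.85 points (0.15 to 4.32). The AP-1 site TGACTCA was in 7.16% against 4.13% (3.04 points, 1.71 to 4.48). For the GATA site AGATAAG, 3.15% against 2.52%, and the E protein site GCAGGTG, 4.64% against 3.58%, the interval of the difference included 0. None of the 7 motifs was found in 923 peaks (52.9%).

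**Figure D2:**
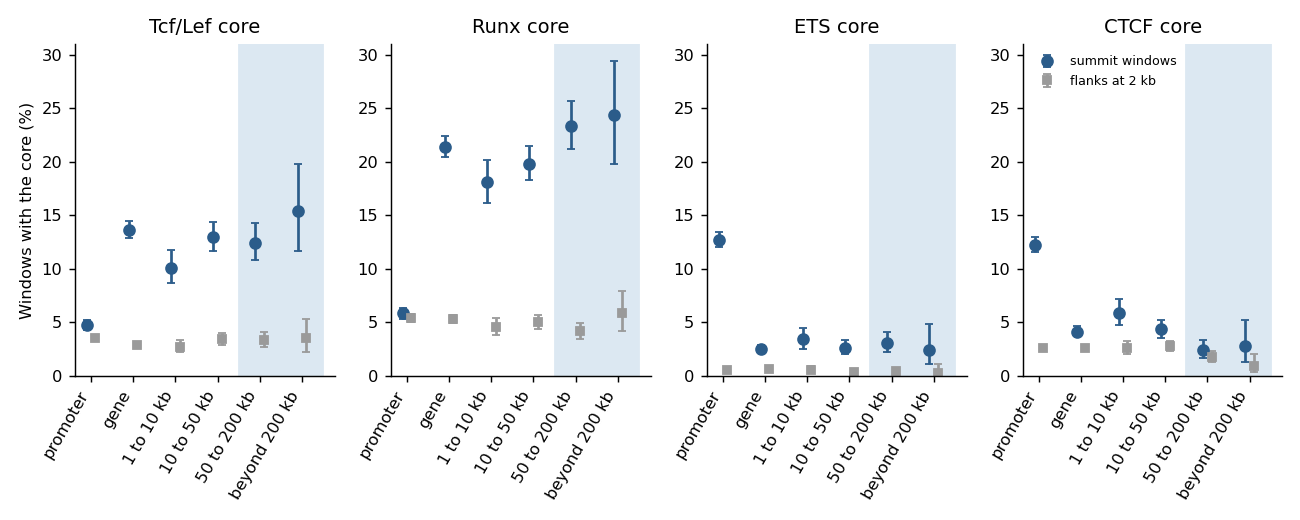
Share of windows within 100 bp holding each core (%) at retained summits (circles) and in flanking windows 2 kb away (squares), by placement of the peak, with exact 95% binomial intervals; shading marks the peaks over 50 kb away. At 50 to 200 kb and beyond 200 kb the Tcf/Lef core was in 12.5% and 15.4% of summits and the Runx core in 23.4% and 24.4%. Promoters stood apart with the ETS and CTCF cores in 12.7% and 12.2%. The reversed CTCF core was also in 5.90% of promoter summits against 0.89% of flanks. Mean GC content there was 61.9% at summits and 44.8% in flanks, and its part in these shares was not tested.

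Compared with peaks at 10 to 50 kb, the interval of the difference lay clear of 0 for 3 of the 7 motifs, with no adjustment for their number. The Tcf/Lef difference was 0.00 points (-2.04 to 2.09). The Runx share was higher than the 19.8% at 10 to 50 kb by 3.74 points (1.22 to 6.29), but with no peak set aside the difference was 2.27 points (-0.10 to 4.68), an interval that includes 0. The CTCF difference was -1.89 points (-2.96 to -0.77) and the E protein difference -1.72 points (-3.08 to -0.31), while the mean GC content of the summit windows was 47.9% against 49.7%. Between the ranges beyond and within 200 kb, the interval of the difference included 0 for all 7 motifs (2.98 points for Tcf/Lef, -0.99 to 7.604). Against promoters the distal peaks held more Tcf/Lef cores by 8.29 points (6.72 to 10.01) and more Runx cores by 17.7 points (15.7 to 19.8). The difference for the ETS core CGGAAGT was -9.72 points (-10.7 to -8.58). That core holds a CpG, and summit windows had a mean of 15.5 CpG at promoters and 3.23 beyond 50 kb. The ETS-type word CAGGAAG went the other way, in 27.4% of windows beyond 50 kb and 11.6% at promoters.

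Shares of the Tcf/Lef and the Runx core were higher in the ranges of higher enrichment. The Tcf/Lef share was 9.87% under a fold enrichment of 4 (n = 233), 11.2% at 6 to 10 (n = 456), 15.5% at 10 to 20 (n = 329) and 23.9% (17.9 to 30.8) at 20 or more (n = 180). The Runx share over the same ranges was 16.3%, 23.7%, 29.2% and 30.6% (23.9 to 37.8). The ETS share was 3.86% and the CTCF share 3.43% in the lowest range, and each was 1.11% (2 of 180) in the highest. Even in the strongest group most summits lacked the exact Tcf/Lef core.

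**Figure D3:**
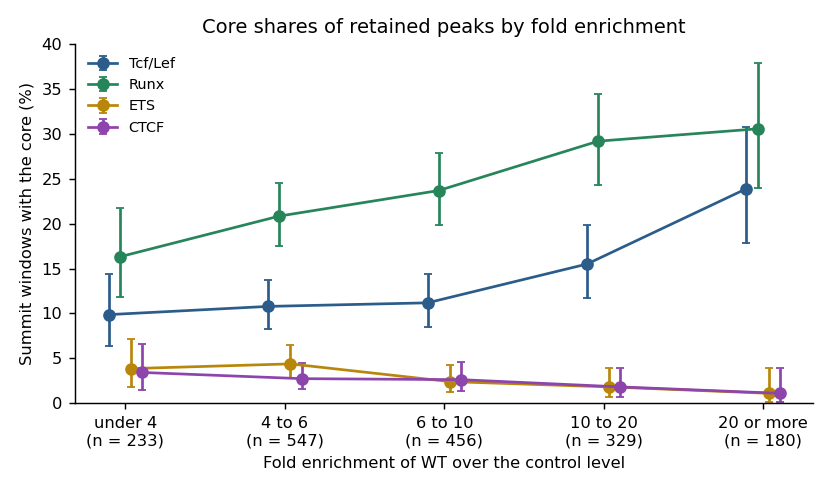
Share of retained summit windows with each core (%) against fold enrichment of the WT library over the control level, with exact 95% binomial intervals and the number of peaks under each range. The Tcf/Lef share was 9.87% under 4 and 23.9% at 20 or more, and the Runx share 16.3% and 30.6%, whereas ETS and CTCF ended at 1.11%.

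Cores differed in their distance from the summit. The Tcf/Lef core lay a median of 22 bp from it (interquartile range 9 to 52; n = 227) and the Runx core 32 bp (n = 411), against 38.5 bp for ETS (n = 52) and 48 bp for CTCF (n = 43). Peaks with both cores numbered 42 (2.41%) and had a median fold enrichment of 9.66, beside 7.95 with the Tcf/Lef core alone, 7.48 with the Runx core alone and 6.19 with neither. Beyond 200 kb the order was another, with 7.01 for the 13 peaks with both cores, 8.73 with the Tcf/Lef core alone and 7.81 with the Runx core alone. The Runx core was found in 18.5% of peaks with the Tcf/Lef core and 24.3% of those without, a difference of -5.81 points (-10.8 to 0.13). The difference was -7.97 points (-13.3 to -1.40) at 50 to 200 kb and 1.91 points (-9.57 to 16.3) beyond 200 kb, and at 10 to 50 kb it was -7.47 points (-11.2 to -3.02). All 3 of the Tcf/Lef, Runx and ETS cores together were found in 0 peaks.

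All 7-base words were also ranked by their excess within 50 bp of the summit over the flanks. CAGGAAG, with an ETS-type GGAA, came first of 8155 words, in 18.1% against 3.44%. The Runx core came second with 15.8% against 2.06%, GATGTGG took rank 5, TTCAAAG rank 7 and the Tcf/Lef core rank 9 with 9.46% against 1.43%. Words that overlap in sequence are not separate findings. Within 100 bp, CAGGAAG was in 27.4% of retained peaks against 7.51% of flanks, and at promoters in 11.6% against 7.16% of flanks.

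A longer joined sequence recurred. CTTTGATGTGG, the Tcf/Lef core continued by GTGG, was within 100 bp of 13 retained summits (0.745%, 0.40 to 1.27) and 0 of 3490 flanks, and 12 peaks at 10 to 50 kb (0.483%) held it too. These 13 peaks had a median fold enrichment of 22.2, from 3.27 to 50.3, and 7 of them reached 20. The 7 were nearest to Rpl21-ps10 (50.3), Sipa1l2 (42.9), Phlda1 (40.8), Mtx2 (36.0), Foxq1 (31.9), Gm6498 (27.4) and Slc38a2 (22.2). The 12 at 10 to 50 kb had a median of 8.26 and the 45 inside genes a median of 8.38, and these differences were not tested. The half-site AACCAC running into TTCC was within 100 bp of 26 retained summits (1.49%, 0.98 to 2.18) against 2 flanks (0.06%), with Obfc2a at 63.3 and Atp10a at 46.7 the strongest, but the median of these 26 was 8.26. Both sequences were chosen after the word ranking and the printed windows of strong peaks were seen. The high fold enrichments of their strongest carriers are therefore partly fixed by that choice.

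Neighbours were common even far from genes. Another deposited summit lay within 10 kb of 841 retained peaks (48.2%, 45.8 to 50.6), compared with 52.3% at 10 to 50 kb (difference -4.08 points, -7.13 to -1.02) and 74.9% at 1 to 10 kb. Beyond 200 kb the share was 41.0%, against 49.8% at 50 to 200 kb, a difference of -8.77 points (-14.6 to -2.76). Joined in steps of at most 10 kb, 795 retained peaks formed 306 groups, of which 199 were pairs and 49 held 4 or more. The largest, chr8:37217984-37247439 between D8Ertd82e and Lonrf1, held 8 peaks in 29.5 kb, with fold enrichments of 5.61 to 21.4. A group of 7 in 17.3 kb lay 233 to 250 kb from Rplp1 and included its strongest peak.

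Of the 1745 retained peaks, 1741 were spread over 641 gaps between protein-coding genes, and 97 gaps with 5 or more held 829 of those 1741 (47.6%). The gap between Eea1, an endosome tether, and Btg1, an antiproliferative gene of quiescent lymphocytes, was 571 kb long and held 21 retained of 27 deposited summits, 18 of them high-confidence. Fold enrichment there ran from 3.43 to 37.1, with 5 Tcf/Lef and 7 Runx cores. The gap between Id2, the inhibitor of E proteins, and Rnf144a was 1211 kb long and also held 21, but its maximum was 18.2 and it had 1 Tcf/Lef core. The gaps from Satb1, a chromatin organiser of T cells, to Kcnh8 and from Tbc1d1 to Klf3, a Krüppel-like transcription factor, held 18 each, with maxima of 36.0 and 30.5.

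**Figure D4:**
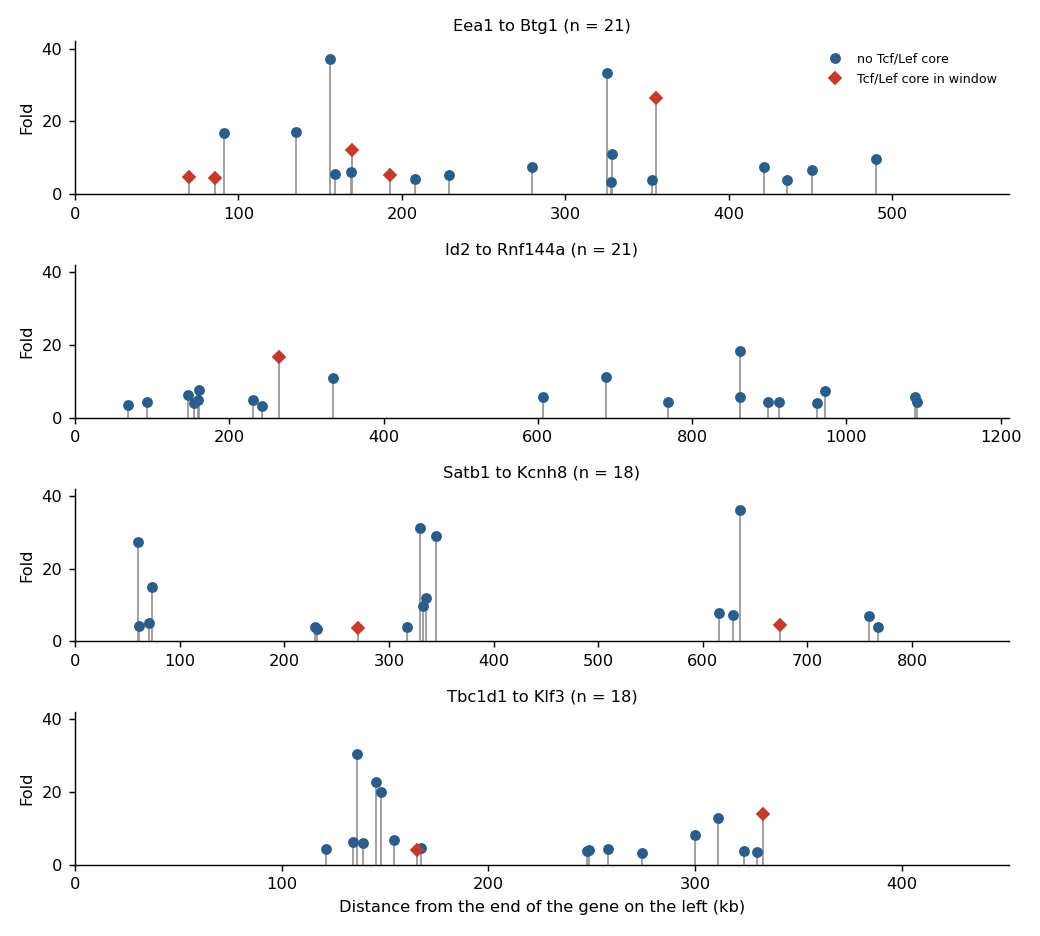
Fold enrichment of each retained peak (vertical) against distance from the end of the gene on the left (kb) in the 4 gaps between protein-coding genes that held the most retained peaks; diamonds carry the Tcf/Lef core within 100 bp and circles do not. Spacing between peaks varied within each gap, and the highest values were 37.1, 18.2, 36.0 and 30.5.

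Many T lineage genes were the nearest gene of a retained peak. Of 40 T lineage and CD8 transcription factor genes that had any intergenic sequence over 50 kb away for which they were nearest, 26 (65.0%, 48.3 to 79.4) had a retained peak there, beside 749 of 4914 such protein-coding genes (15.2%, 14.2 to 16.3). The counts were 16 of 34 (47.1%) for T cell receptor, adhesion and signalling genes and 7 of 12 (58.3%) for cytokines, chemokines and their receptors. They were 5 of 13 (38.5%) for B cell, myeloid and other blood genes, 8 of 62 (12.9%) for developmental regulators of other tissues, 1 of 33 for olfactory receptors (Olfr) and 3 of 97 for vomeronasal receptors (Vmn). These shares were not adjusted for the length of each gene's surroundings, and the lists were drawn up with earlier results of these data known.

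Among the 126 peaks nearest to T lineage factors, Satb1 had 13, Ets1 12, Myc 12, Id2 11, Klf3 10 and Lef1 9. At Satb1 the strongest was 330 kb upstream at chr17:52301637-52302761, with 239 fragments against 6.69 and a fold enrichment of 31.2, while peaks 345 and 59.7 kb upstream had 184 and 175 fragments against 5.42 and fold enrichments of 28.8 and 27.4. At Lef1, peaks 163 and 173 kb upstream had 177 and 167 fragments with fold enrichments of 27.7 and 26.2, each with the Runx core, and none of its 9 nearest peaks carried the Tcf/Lef core. Gata3, needed for T lineage commitment and helper fate, had a peak 353 kb downstream with a fold enrichment of 26.2. Runx1 had one 154 kb upstream (25.9), Bcl6, a transcriptional repressor that promotes the follicular helper fate, one 165 kb upstream with the Tcf/Lef core (28.8), and Eomes, a T-box factor of CD8 memory, one 87.3 kb upstream (20.3). Levels were lower at Id2, with 16.7 at 264 kb and the Tcf/Lef core, and at Tox, a factor of thymic selection and exhaustion, with 14.8 at 464 kb and no core. Of the 4 peaks nearest to Tox, 2 carried the Tcf/Lef core. The 12 peaks nearest to Myc, a regulator of growth, were 315 to 898 kb away and reached only 10.1.

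Among receptors and signalling genes, Tgfbr2, the type 2 receptor of TGF-beta, had 13 peaks at 55.3 to 209 kb, all high-confidence. Its strongest, chr9:116203070-116203746 at 119 kb upstream, had 270 fragments against 5.42, a fold enrichment of 42.2 and the ETS core. Cxcr4, a homing chemokine receptor, had 8 peaks with a maximum of 29.8 at 190 kb, and Ifngr1, a chain of the interferon gamma receptor, had 6 with a maximum of 27.3. Arl4c, a small GTPase gene, had 9 with a maximum of 34.1, and 3 carried the Tcf/Lef core. Dusp4, a MAP kinase phosphatase, reached 31.5 and Rasgrp1, a Ras activator below the T cell receptor, 20.04. Cd28 and Icos, costimulatory receptors, had 3 and 2 peaks that reached 8.41 and 7.01. Of the other blood genes, Ly86 reached 17.8 and Klf4 14.6, and of the developmental regulators Sall3 reached 33.2, Sox5 23.7 and Tbx3 22.3.

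The peaks set aside made up a larger part of the list the farther they lay from genes. They were 2.55% of intergenic peaks at 1 to 10 kb, 3.498% at 10 to 50 kb, 6.88% at 50 to 200 kb and 25.3% beyond 200 kb, and 16 of the 20 peaks beyond 1000 kb. Per Mb their density was nearly level, between 0.20 and 0.33 in each range. Of the 215, 196 had 10 or more copies, 21 had a control level over 50, and 2 met both criteria. Only 74 (34.4%, 28.1 to 41.2) were high-confidence, and their median fold enrichment was 3.65 with a maximum of 12.6. The ETS core and the CTCF core were in 0 of 215, and the Runx core was in 8.84% against 5.35% of flanks (difference 3.49 points, -0.53 to 8.37).

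The Tcf/Lef core was found in these peaks as well. It was in 28 of 215 (13.02%) against 3.95% of flanks, close to its share in the retained. All 28 were among the peaks with many copies, and 20 of them were among the 88 with a control level at its floor (22.7%), compared with 8 of 106 (7.55%) where the control was above the floor. Copies of a repeat share their sequence, so these counts do not stand for separate sites. The 21 peaks with a high control level held 0.

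**Figure D5:**
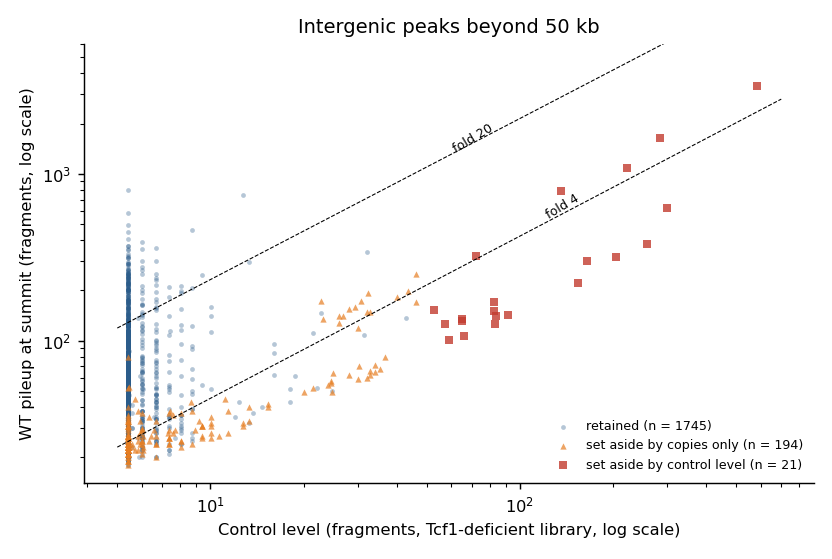
WT pileup at the summit against the control level from the Tcf1-deficient library (fragments, both log scales) for each of the 1960 peaks; dashed lines mark fold enrichments of 4 and 20. Most retained peaks (84.9%) line up at the control floor of 5.42, where they reach 805, and 7 lie above 20, while the 21 peaks set aside by control level lie at 52.8 to 585 control fragments and stay under a fold enrichment of 6.

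The 3 tallest signals far from protein-coding start sites belonged to this class. A region 5787 bp wide at chr17:39979970-39985756, with Pgk2 the nearest protein-coding gene at 364 kb and an annotated start site of another type 4.34 kb away, had a pileup of 3346 in the WT library and a control level of 585 in the Tcf1-deficient library, a fold enrichment of only 5.71. The others by pileup were near Pxmp3 (1647 against 284, 5.78), Axin2 (1085 against 223, 4.86) and Samd9l (792 against 136, 5.77). Near Vmn1r238 (625 against 300), Kcnh5 (379 against 257) and Gdi2 (316 against 205) the fold enrichment was 1.47 to 2.08, and near Cr2 (322 against 72.2) it was 4.41. In all 8, signal was high in both libraries.

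A run of 19 set-aside peaks between Ezh2 and Pdia4, chr6:47604830-47713698, filled 109 kb with 32-base words of 12 to 18 copies. Their pileup was 56 to 198 against control levels of 22.7 to 43.5, and although 13 were high-confidence, 0 carried the Tcf/Lef core. The median spacing between their summits was 3949 bp. Of 18 spacings, 6 were between 4200 and 4400 bp, a range that was not among the planned settings. The many-copy class had a median fold enrichment of 3.72 and a median of 134.5 copies. Its strongest member is shown as an example and is not typical of it. This peak lay 196 kb downstream of Gata3, with 80 fragments against 5.42, a fold enrichment of 12.6 and words of 20.5 copies, and none of the 3 cores was in its 101 bp.
Gata3 peak (chr2:9598940-9599040): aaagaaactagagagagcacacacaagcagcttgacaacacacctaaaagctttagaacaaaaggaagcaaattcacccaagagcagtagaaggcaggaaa
Among the retained, 64 peaks had 2 to 10 copies and 7 had a control level over 20, so peaks of intermediate kind stayed among them. Of these 64, 1 on chromosome 12 had 81.2% of its words in common with the mitochondrial genome, with a fold enrichment of 3.14.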

How the data were processed

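The deposited list was made by the authors with Bowtie2 version 2.2.5 alignment to mm9 and MACS2 version 2.1.1 in paired-end mode (p limit 1e-05, 1 fragment per position), calling WT peaks over the Tcf1-deficient library. The tool versions come from the submitters' processing notes. Per the file headers, pileup is the coverage of WT fragments at the summit. The deposited fold enrichment is the ratio of that pileup to the local control level, with 1 added to each. The deposited −log10 p and −log10 q are the peak caller's own and compare the libraries. The control level was computed here from pileup and fold enrichment.

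Summits were placed against GENCODE vM1 on NCBIM37. That annotation types T cell receptor segments as IG genes (481 genes carry an IG type), so most receptor segments are not protein-coding start sites here, though some, such as Ighv1-73, are typed protein-coding. Copies are occurrences of 32-base words in the genome. Motif shares used windows of 201 bp and flanks 2 kb to each side. Intervals are exact binomial, exact Poisson or Newcombe at 95%, and cover counting error only. The members and gene lists were chosen with earlier results of these data known, and the joined motifs after the word ranking and the printed windows were seen. The selection for naming held the 15 retained peaks with the largest fold enrichment in each distance range and the 8 set aside with the largest pileup. It also held the strongest retained peak of each gene on 4 lists, where its fold enrichment was 10 or more. The 4 gaps with most retained peaks were added. Not every selected peak is named above, and those left out include the ones nearest to Amigo2, Enc1, Serp2 and Tgfbr3. Other peaks named beside these were chosen after their values were seen. Placement, copy counts, motif counts and interval coverage were tested on simulated data. Python 3.11.15, numpy 2.4.6, pandas 2.3.3, scipy 1.17.1, pysam 0.24.0 and matplotlib 3.10.9 were used.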

Additional observations from a re-analysis of the deposited data

How the results depend on the processing

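Of 75 values recomputed under alternatives, 51 stayed within their interval, or within 1.5 times for counts, and 24 did not. With a distance limit of 40 kb the density was 2.23 summits per Mb, and with 60 kb 1.78. The median fold enrichment was 7.48 among high-confidence peaks, 13.2 among peaks of fold enrichment 8 or more, and 5.92 with no peak removed. Among peaks of fold enrichment 8 or more the shares were 16.6% for the Tcf/Lef core, 27.99% for Runx, 1.88% for ETS, 1.59% for CTCF and 53.7% for a neighbour within 10 kb. With no peak removed the neighbour share was 44.7%, within 5 kb it was 34.7% and within 25 kb 66.6%. In windows of 50 bp to each side the core shares were 9.46%, 15.8%, 2.12% and 1.15%, and in windows of 250 bp to each side 19.5%, 31.4%, 4.53% and 5.85%, in the order Tcf/Lef, Runx, ETS and CTCF. When the Tcf/Lef core was allowed 4 forms (CAAAG after AT, TT, AA or TA) its share was 36.6% against 17.2% of flanks. The high-confidence share was 35.5% with a fold enrichment limit of 8 and 86.6% among retained peaks. The cause of these shifts was not tested. No paired analysis was possible because each group had 1 library, and no library could be left out. At the control floor, depth limits fold enrichment to what the WT pileup gives.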

Other observations

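The nearest annotated start site of any type was that of an antigen receptor segment for 30 retained peaks, 18 on chromosome 14, 5 on chromosome 6, 5 on chromosome 12 and 2 on chromosome 13. Fold enrichment ran from 3.27 to 25.1 on chromosome 14 and from 3.43 to 5.92 on chromosome 12. The annotation types most such segments apart from protein-coding genes, so these peaks counted as far from protein-coding start sites while an annotated receptor segment was the nearest start site of any type.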
